A study of Mus musculus with 30 samples.

Results

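The collagen genes of the mouse were followed across 30 thyroid libraries. Members were all protein-coding genes whose symbol is Col, a number, the letter a and a number, which gave 44 of the 50686 genes in the files. By the type of structure their chains build, 11 were fibrillar, 8 belonged to basement membranes (the chains of type IV, Col15a1 and Col18a1) and 25 were placed together as other collagens. The choice was made by name and used no measured value, although earlier results of these data were known when it was made. After a filter on low counts, 42 of the 44 were tested in the 24 libraries of the genotype set, where Col19a1 and Col6a4 were too low. In the 6 libraries of the ageing set 39 were tested, and there Col17a1, Col6a5 and Col6a6 were also too low.

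Collagens are proteins of the extracellular matrix whose alpha chains wind around each other into a helix, so a finished molecule needs its partner chains together. Fibrillar collagens form the load-bearing fibrils of connective tissue, type IV forms the sheet on which epithelia and vessels rest, and the other types sit on fibrils, link cells to them or stay in the cell membrane. In the thyroid, every follicle rests on a basement membrane, and fibrils fill the capsule and the septa between the follicles.

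Poly(A) RNA of C57BL/6 thyroids was sequenced and counted per gene, with 3 libraries in each of 10 groups. The genotype set held FAD4T and wild-type (WT) males and FAD4T and WT females, each at 8 and at 2 months of age. The ageing set held WT males of 18 months and WT males of 2 months that carry the title numbers 4 to 6. What the name FAD4T stands for, what allele these mice carry and which promoter drives it are not given in the labels, and no agent is named for any group. Litter and dissection day are not given, so the tests weigh differences only against the scatter among the mice of a group. Levels are CPM, the counts of a gene scaled to the size of its library over all 30 libraries. Differences are log2 fold changes with their standard error, and "rose" and "fell" are kept for chains with an edgeR p, adjusted over all genes tested, under 0.05.

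Each library held 14083958 to 20256049 counts, of which collagens took 0.147% to 0.291%. Marker genes of thyrocytes, the hormone-making cells, summed to 39240 to 310400 CPM, so the labelled tissue was present in all 30. Several libraries also held transcripts of neighbouring or other organs. Thymocyte markers summed to 70.4 to 335 CPM in 5 FAD4T libraries (males of 2 months 2 and 3, females of 2 months 1 and 2, and males of 8 months 1), against 1.08 to 27.2 CPM in the others. A list of lung markers, added after the data were seen, summed to 392 to 567 CPM in 5 of the 6 libraries of 8-month females, against 1.75 to 39.6 CPM in the other 25. Liver markers summed to 148 to 501 CPM in all 8-month libraries, against 0.0644 to 2738 CPM at 2 months in the genotype set, where the median was 2.59 CPM. In such bulk samples fewer cells of a type and less RNA per cell cannot be told apart.

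Of the 6 chains that were called in both age comparisons below, Col3a1, Col9a1 and Col8a1 have an entry in RefSeq's promoter table for GRCm38.p6. The 250 bases before their starts are shown because the first pair fell with age and Col8a1 rose. Capitals mark matches, on either strand, to 3 common promoter motifs: the CCAAT box, the TATA box as TATAAA, and the GC box as GGGCGG. No motif contains another.
Col3a1: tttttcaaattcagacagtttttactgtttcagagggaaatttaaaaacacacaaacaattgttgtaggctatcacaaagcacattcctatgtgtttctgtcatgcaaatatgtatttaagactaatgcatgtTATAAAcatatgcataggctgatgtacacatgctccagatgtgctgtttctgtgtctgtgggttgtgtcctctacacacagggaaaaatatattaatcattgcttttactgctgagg
Col9a1: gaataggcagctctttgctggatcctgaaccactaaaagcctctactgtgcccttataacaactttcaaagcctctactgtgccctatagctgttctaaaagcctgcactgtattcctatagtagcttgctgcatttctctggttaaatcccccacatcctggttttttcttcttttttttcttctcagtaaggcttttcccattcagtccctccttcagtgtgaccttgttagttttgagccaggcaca
Col8a1: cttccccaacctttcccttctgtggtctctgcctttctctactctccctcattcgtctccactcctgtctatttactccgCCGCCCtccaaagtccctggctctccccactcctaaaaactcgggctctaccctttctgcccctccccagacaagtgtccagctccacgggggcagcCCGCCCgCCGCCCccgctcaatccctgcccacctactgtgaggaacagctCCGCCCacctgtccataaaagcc

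The Col3a1 window, on the plus strand (chr1:45311288-45311537), held 1 TATAAA, which begins 117 bases before the start. The Col9a1 window lies before the more upstream of its starts (chr1:24177360-24177609, plus strand) and held none of the 3 motifs. In the Col8a1 window, on the minus strand (chr16:57754738-57754987), 4 matches to the GC box, all read on the other strand as CCGCCC, begin 170, 73, 66 and 23 bases before the start. Among all 32851 promoter windows of that length, 33.8% held the CCAAT box, 12.4% the TATA box and 32.7% the GC box. For 35 of the 44 members 38 windows were found, of which 13 held the CCAAT box, 5 the TATA box and 22 the GC box. These matches describe letters and are not evidence of binding.

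Basement membrane chains were the most abundant collagen transcripts of these thyroids when levels were taken per length, as CPM per kilobase of exon. Col4a2 and Col4a1, the chains found in nearly all basement membranes, came first with medians of 39.0 and 35.5 CPM per kilobase over 30 libraries. Col18a1, whose protein releases endostatin, followed at 22.7, then Col4a6 at 17.1 and Col4a5 at 16.3. The fibrillar class was led by Col3a1, a chain of soft, stretchable tissue, at 15.6 CPM per kilobase, with Col1a1 at 9.45 and Col1a2 at 8.07, the type I chains of tougher fibrils. Among the other collagens, Col6a1 and Col6a2 of the beaded filaments around cells came first at 15.1 and 14.1, and Col9a3, which sits on the surface of fibrils, came next at 6.56. Exon length counts every annotated exon of a gene, and Col1a2 has 12426 bases by that count against 6563 for Col1a1, so a level per length can be too low where rarely used exons are included.

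Summed per kilobase, the basement membrane class made up 45.2% to 69.5% of all collagen transcripts in a library, the fibrillar class 8.92% to 31.2% and the others 20.1% to 28.9%. The fibrillar share was lowest in older males. It was 10.9% ± 2.17 in 18-month WT males and 15.7% ± 2.73 in their 2-month group (SD, n = 3 each). In the genotype set it was 12.3% ± 1.72 in FAD4T and 12.6% ± 1.32 in WT males of 8 months, against 20.1% ± 1.87 and 17.4% ± 0.622 at 2 months (SD, n = 3 each). Females of 8 months had 21.7% ± 0.849 with FAD4T and 23.3% ± 8.40 as WT, against 21.6% ± 4.52 and 18.0% ± 3.72 at 2 months (SD, n = 3 each). No test was run on these shares, since each depends on the chains described next.

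**Figure D1:**
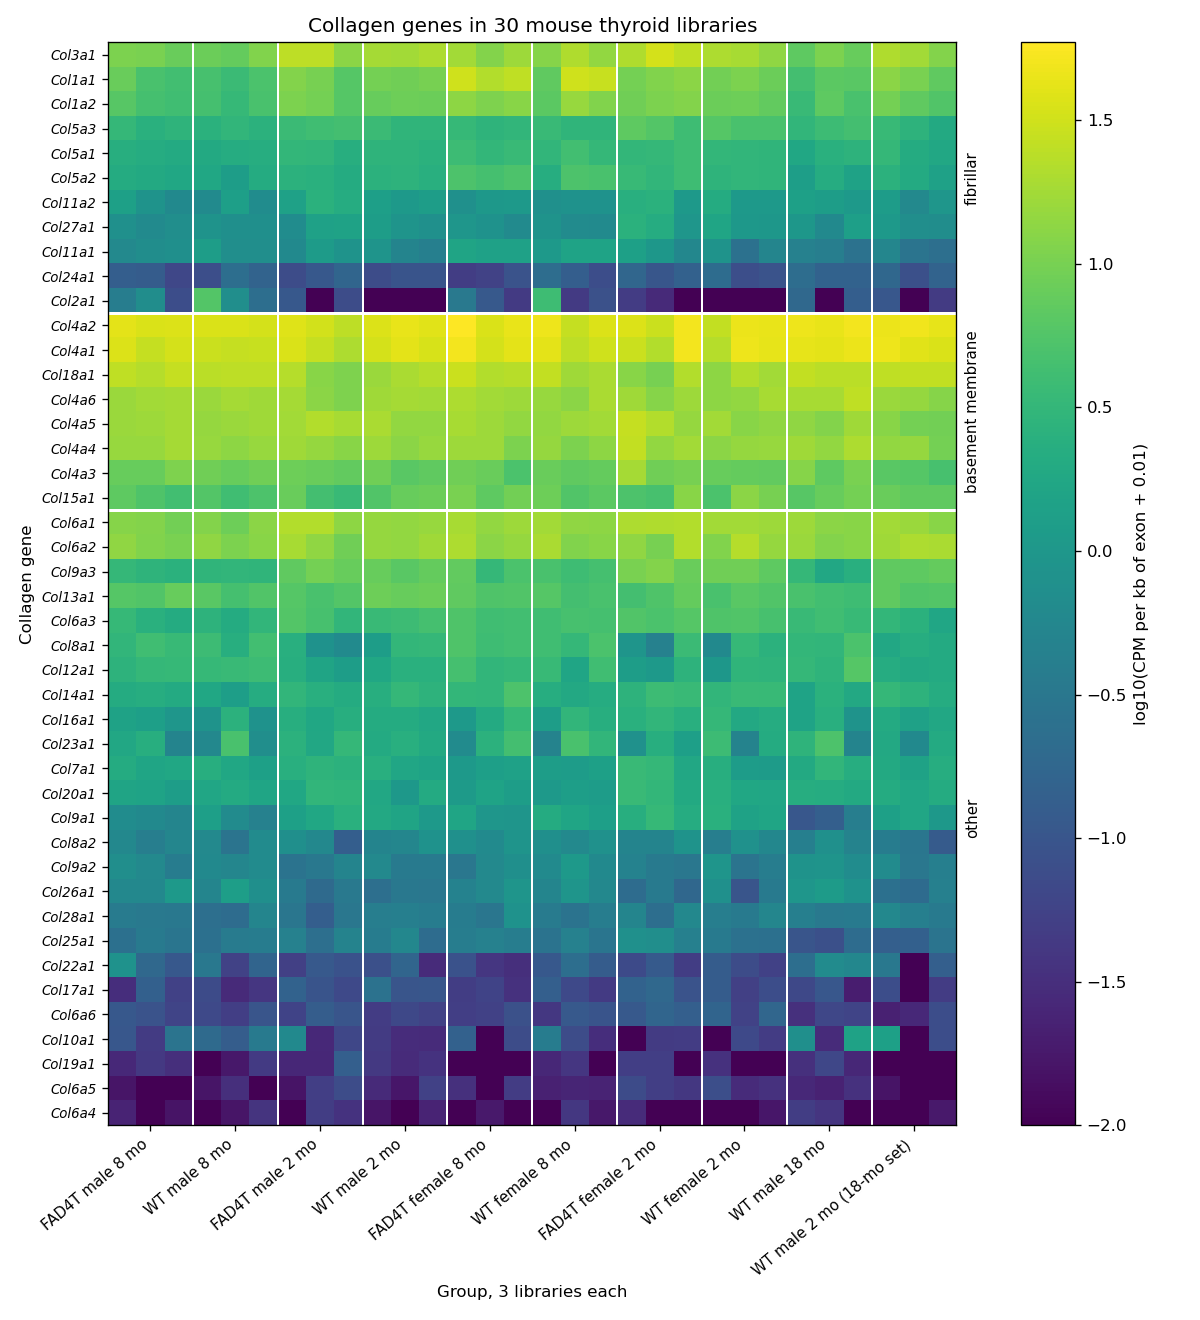
Level of each of the 44 collagen genes (rows, by class) in each of the 30 libraries (columns, by group), as log10 of CPM per kilobase of exon plus 0.01, with 3 libraries a group. Col4a2 and Col4a1 have the highest medians, although Col3a1 exceeds both in FAD4T female 2 of 2 months and Col1a1 does in WT female 2 of 8 months, and Col6a4, Col6a5 and Col19a1 have the lowest medians.

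Partner chains differed in how closely they kept their ratio. Col4a1 (chromosome 8, 11198423 to 11312826, minus strand) and Col4a2 (chromosome 8, 11312805 to 11449287, plus strand) lie head to head on GRCm38, with 22 exon bases in common. Their ratio per kilobase, Col4a2 over Col4a1, ran only from 0.947 to 1.36 while Col4a1 itself varied 2.54-fold between libraries. Col4a4 over Col4a3, chains best known from the filter of the kidney, ran from 1.37 to 2.48, and Col4a6 over Col4a5 ran from 0.559 to 1.57. The beaded filament pair Col6a2 over Col6a1 spanned 0.471 to 1.58. For the type I partners, Col1a2 over Col1a1 ran from 0.4005 to 1.05. The widest ratio taken was Col3a1 over Col1a1, at 0.502 to 2.90, but these are chains of different collagens and not partners. Both were lowest in the same 5 libraries of 8-month females, with Col1a2 over Col1a1 at 0.4005 to 0.5004 there and 0.673 to 1.05 in the other 25.

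**Figure D2:**
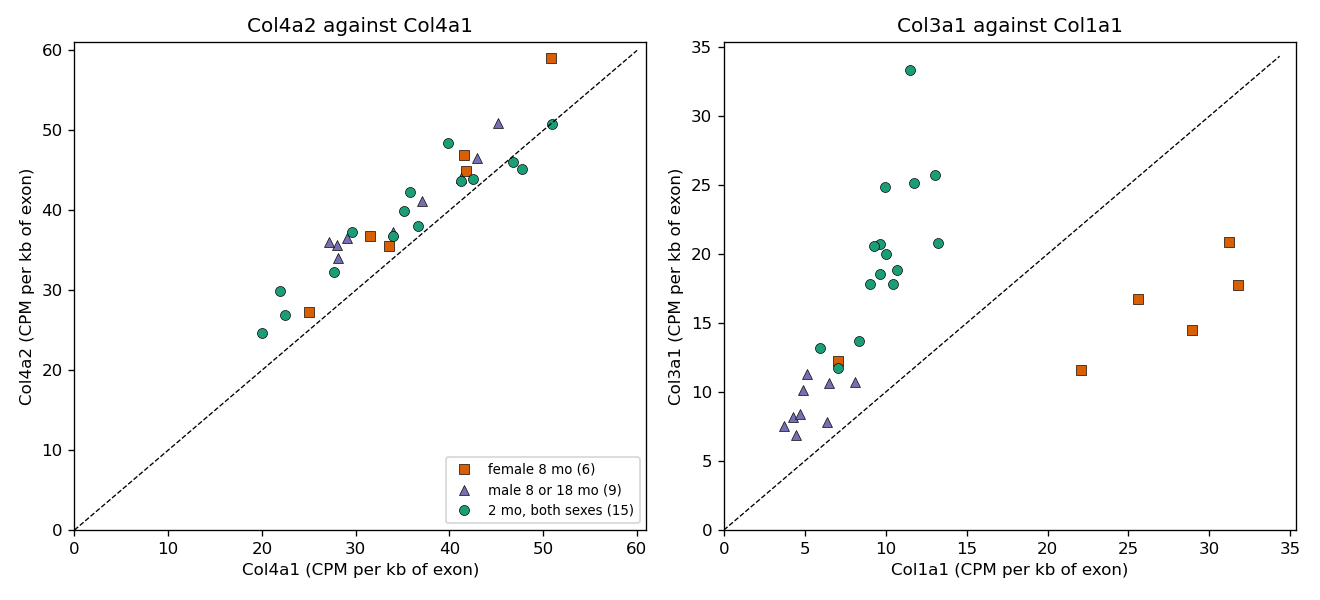
Col4a2 against Col4a1 (left) and Col3a1 against Col1a1 (right), both in CPM per kilobase of exon, 1 point a library: 6 of 8-month females, 9 of males of 8 or 18 months and 15 of 2 months. The dashed line marks equal levels. The type IV pair follows that line closely in all 30 libraries, while 5 of the 8-month females lie apart on the right, with high Col1a1.

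In WT males of 18 months, 6 collagen chains fell and 5 rose against WT males of 2 months, out of 39 tested. Those that fell were the fibrillar Col3a1 and Col1a1, Col9a1 and Col9a3 of fibril surfaces, the beaded filament chain Col6a2 and the membrane-bound Col13a1. Those that rose were the basement membrane chains Col4a3 and Col4a6, the network chain Col8a1, Col12a1, which coats type I fibrils, and Col26a1. The 11 were 28.2% of the chains tested, against 35.9% of all 16283 genes, with 17.1% of genes higher and 18.8% lower, so collagens were not called more often than genes in general. The median log2 difference was 0.11 over the chains and -0.01 over all genes. In each of the 11 the values of the groups did not overlap, which held for 14 of the 39 tested. Since the 11 were picked by a small p, this is not separate support. The share of all genes without overlap was not taken.

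Among fibrillar chains, Col3a1 (ENSMUSG00000026043, chromosome 1, 45311538 to 45349706) stood at 67.8, 105 and 77.2 CPM at 18 months, against 203.9, 175 and 115 CPM at 2 months. All the older glands were lower, although the highest of them came close to the lowest young one. It fell by 0.999 ± 0.25 on the log2 scale (adjusted p = 0.0174). Col1a1 (ENSMUSG00000001506, chromosome 11, 94936224 to 94953042) had 29.4, 42.8 and 41.9 CPM at 18 months and 86.8, 68.6 and 46.2 CPM at 2 months. This chain fell by 0.84 ± 0.25 (adjusted p = 0.0362). Its partner Col1a2 had 44.7, 84.9 and 60.0 CPM at 18 months, against 120.1, 87.4 and 69.0 CPM at 2 months. These groups overlapped, and the difference of -0.56 ± 0.29 missed the threshold (adjusted p = 0.176).

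Of the 3 chains of type IX collagen, known from cartilage, Col9a3 and Col9a1 fell, while Col9a2 differed by 0.78 ± 0.39 and did not pass (adjusted p = 0.151). Col9a2 had 2.65, 2.71 and 2.06 CPM at 18 months and 2.035, 0.940 and 1.26 CPM at 2 months, with the older group higher and no overlap. Col9a3 (ENSMUSG00000027570, chromosome 2, 180597790 to 180622189) had 12.3, 6.99 and 9.03 CPM at 18 months and 27.4, 26.6 and 29.7 CPM at 2 months. Every old gland lay under 13 CPM and every young one over 26 CPM, a log2 difference of -1.57 ± 0.21 (adjusted p = 0.00145). Col9a1 (ENSMUSG00000026147, chromosome 1, 24177610 to 24252684) stood at 0.487, 0.663 and 2.00 CPM at 18 months and at 6.95, 8.70 and 5.19 CPM at 2 months. It fell by 2.735 ± 0.52 (adjusted p = 0.00519). Of the exon bases of Col9a3, 6.07% also belong to Tcfl5, and since reads were counted without strand, reads there cannot be assigned. Col13a1 had 22.5, 19.6 and 18.2 CPM at 18 months and 33.0, 26.1 and 26.7 CPM at 2 months, a difference of -0.52 ± 0.15 (adjusted p = 0.0275).

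The beaded filament chains did not move as a set. Col6a2 had 131.7, 98.1 and 106 CPM at 18 months and 140.4, 166.5 and 165 CPM at 2 months, and fell by 0.50 ± 0.15 (adjusted p = 0.028). For Col6a1 the difference was -0.14 ± 0.17 (adjusted p = 0.553), with an interval of 2 SE from -0.47 to 0.20. Col6a3 was 42.4, 49.9 and 40.8 CPM at 18 months and 37.6, 30.95 and 20.4 CPM at 2 months. Its groups were apart with the older one higher, but the difference of 0.565 ± 0.22 did not pass (adjusted p = 0.0753).

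Of the chains that rose, Col26a1 had 7.78, 9.59 and 6.69 CPM at 18 months and 1.92, 1.65 and 3.51 CPM at 2 months, a difference of 1.76 ± 0.33 (adjusted p = 0.00479). Col8a1 (ENSMUSG00000068196, chromosome 16, 57624258 to 57754737) stood at 15.9, 15.3 and 26.1 CPM at 18 months and at 9.16, 11.4 and 10.1 CPM at 2 months, a difference of 0.89 ± 0.235 (adjusted p = 0.0186). Col12a1 had 50.1, 42.9 and 92.4 CPM at 18 months and 33.1, 28.3 and 30.3 CPM at 2 months, a difference of 1.003 ± 0.28 (adjusted p = 0.0301). Library 3 of 18 months was well above the other two for Col8a1 and Col12a1. In the basement membrane class, Col4a3 had 123.1, 69.2 and 102 CPM at 18 months and 64.2, 59.4 and 46.4 CPM at 2 months, a difference of 0.78 ± 0.22 (adjusted p = 0.029). Col4a6 had 148.7, 148.6 and 206 CPM at 18 months and 129.2, 120.4 and 96.3 CPM at 2 months, a difference of 0.53 ± 0.18 (adjusted p = 0.0447). The abundant Col4a1 and Col4a2 differed by 0.055 ± 0.15 and 0.045 ± 0.13, with intervals of 2 SE from -0.24 to 0.35 and from -0.22 to 0.31.

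Without library 3 of 18 months 4 chains were called, and without 2-month library 4, 5 or 6 the counts were 6, 4 and 6. Taking all 6 WT males of 2 months as the comparison group gave 7 calls, with Col4a3, Col4a6, Col6a2 and Col8a1 lost. Col9a1, Col9a3 and Col26a1 passed in each of the 10 other settings tried. Other markers also moved: 5 of 7 endothelial, 2 of 7 mural and 4 of 6 adipocyte markers fell, and 0 of 8 fibroblast markers passed. Adipocyte markers summed to 123 to 265 CPM at 18 months and 1029 to 1342 CPM at 2 months, endothelial markers to 320.5 to 471.5 CPM at 18 months and 566 to 659 CPM at 2 months. Fibroblast markers summed to 746 to 1137 CPM at 18 months and 1026 to 1551 CPM at 2 months. Thyrocyte sums overlapped, at 158100 to 253200 CPM at 18 months and 147600 to 227000 CPM at 2 months. The part of these cells in the collagen differences was not tested.

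Genes that make, trim, bind and degrade collagen were tested from a list of 83, of which 78 passed the filter in this comparison. At 18 months 13 of them rose and 8 fell, against 17.1% of all genes higher and 18.8% lower, so they were not called more often than genes in general, with a median log2 difference of 0.09. Loxl4, a cross-linking oxidase, averaged 18.5 ± 6.06 CPM at 18 months and 3.51 ± 0.057 CPM at 2 months (SD, n = 3 each), a difference of 2.38 ± 0.28 (adjusted p = 0.00116). Timp3, which inhibits the enzymes that degrade matrix, averaged 824 ± 42.2 CPM at 18 months and 299 ± 70.3 CPM at 2 months (SD, n = 3 each). Mia3, which helps load collagen for export, and Adamts3, which trims procollagen, rose by 0.83 ± 0.13 and 1.48 ± 0.34. Among those that fell were Fkbp10, a collagen chaperone (-0.70 ± 0.13), and Prelp (-0.80 ± 0.16), Bgn (-0.91 ± 0.19) and Sparc (-0.69 ± 0.15), matrix proteins that bind collagen.

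At 8 months, averaged over the strata of sex and genotype, 13 chains fell and 6 rose against 2 months, out of 42 tested. This was 45.2% of the chains, against 32.6% of all 18493 genes, 15.8% of them higher and 16.8% lower. By class, 4 fibrillar chains fell and 2 rose of 11, Col18a1 alone rose among the 8 basement membrane chains, and 9 of the 23 other chains fell and 3 rose. The fibrillar rises were Col11a1 and Col2a1. The call of Col2a1, which also counts in the 6 rises and the 45.2%, carries no fold change and is described further below. The median log2 difference was -0.115 over the chains and -0.009 over all genes. Falls were led by Col9a3, Col5a3, Col3a1 and Col9a1, and rises by Col26a1 and Col12a1.

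Over 12 libraries at each age, Col9a3 had a lowest, median and highest level of 9.72, 12.45 and 28.2 CPM at 8 months, against 24.4, 30.9 and 46.0 CPM at 2 months. Only 1 library of 8 months, FAD4T female 1, reached the range of the 2-month glands. The chain fell by 1.16 ± 0.11 (adjusted p = 2.19e-06). Col9a1 ran from 2.24 through a median of 4.69 to 10.4 CPM at 8 months and from 5.32 through 9.19 to 16.8 CPM at 2 months. Its ranges overlapped, and it fell by 0.96 ± 0.18 (adjusted p = 0.00093).

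Fibrillar Col3a1 had 74.3, 112.7 and 205 CPM as lowest, median and highest at 8 months and 129, 199 and 327 CPM at 2 months. It fell by 0.78 ± 0.13 (adjusted p = 0.000362), and the highest 8-month values were those of females. Col5a3, a chain of the type V collagen that starts fibrils, had 17.0, 20.0 and 24.55 CPM at 8 months and 20.0, 28.5 and 46.5 CPM at 2 months. Its 8-month values lay close together, in part below the young range, a difference of -0.57 ± 0.085 (adjusted p = 0.000168). Col11a2 and Col27a1, minor fibrillar chains known from cartilage, fell by 0.85 ± 0.18 and 0.76 ± 0.16 (adjusted p = 0.00229 and 0.0023). Col11a1 rose by 0.55 ± 0.19 (adjusted p = 0.0352), a call lost in 10 of 29 other settings. FAD4T males had 7.46, 8.76 and 9.57 CPM of it at 8 months and 7.83, 14.7 and 10.95 CPM at 2 months. WT males had 16.1, 9.14 and 9.09 CPM at 8 months and 11.1, 6.38 and 5.32 CPM at 2 months. The 5 lung-rich females of 8 months had the highest values, 18.1 to 20.3 CPM. Col1a1 and Col1a2 did not pass in this mean, with 0.18 ± 0.18 and -0.26 ± 0.12 (adjusted p = 0.476 and 0.0946).

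Among the other chains, Col6a1 had 37.9, 58.15 and 82.0 CPM at 8 months and 58.5, 78.8 and 96.2 CPM at 2 months, and fell by 0.44 ± 0.085 (adjusted p = 0.00122). Col6a3 had 24.7, 44.2 and 64.4 CPM at 8 months and 36.1, 57.8 and 72.4 CPM at 2 months, and fell by 0.47 ± 0.10 (adjusted p = 0.00236). Their partner Col6a2 differed by -0.16 ± 0.15 (adjusted p = 0.419). Col20a1, Col7a1, which anchors skin to its base, and Col14a1 fell by 0.635, 0.49 and 0.37, with SE of 0.135, 0.13 and 0.11. The scarce Col17a1 and Col6a5, at most 1.45 and 0.676 CPM in any library, were also called lower.

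Fewer chains rose than fell. Col26a1 had 3.73, 4.74 and 10.5 CPM at 8 months and 0.724, 2.515 and 6.30 CPM at 2 months, a difference of 1.27 ± 0.26 (adjusted p = 0.00184). Col12a1 ran at 24.9, 51.2 and 70.5 CPM at 8 months and 15.0, 30.6 and 43.8 CPM at 2 months, a difference of 0.79 ± 0.19 (adjusted p = 0.00563). Col8a1 had 11.6, 20.4 and 27.1 CPM at 8 months and 2.29, 9.22 and 18.7 CPM at 2 months, a difference of 1.08 ± 0.32 (adjusted p = 0.0182). Col18a1 rose by 0.515 ± 0.13 (adjusted p = 0.00806), with medians of 169 CPM at 8 months and 119.9 CPM at 2 months. The 2-month values of Col8a1 were spread widely, with FAD4T female 2 lowest and FAD4T female 3 highest. Thyrocyte markers also varied, with sums of 101900 to 310400 CPM at 8 months and 39240 to 225800 CPM at 2 months. The 6 libraries of 2 months with Col8a1 under 7 CPM had the lowest sums of that age, 39240 to 113500 CPM. The others of the genotype set had 148000 to 225800 CPM. Col12a1 (15.0 to 26.6 against 34.5 to 43.8 CPM) and Col18a1 (69.9 to 114 against 126 to 158 CPM) were also lower in the 6. Col26a1 overlapped (1.59 to 6.30 against 0.724 to 2.89 CPM), and Col11a1 was higher (10.8 to 17.7 against 3.08 to 7.83 CPM). The part of thyrocytes in the rises was not tested.

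**Figure D3:**
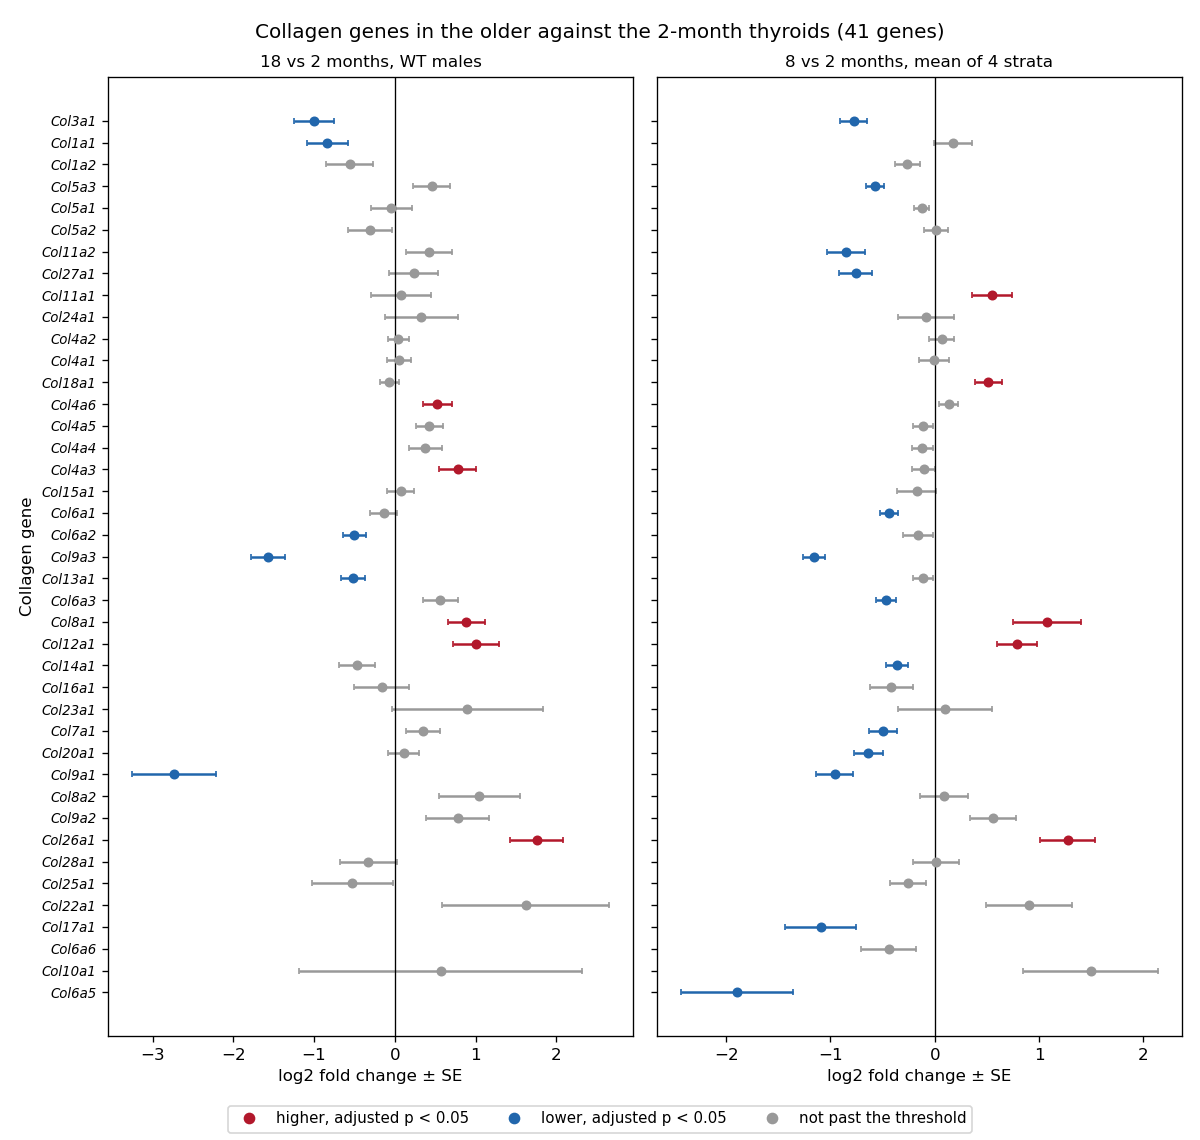
Log2 fold change with 1 SE for the tested collagen chains at 18 against 2 months in WT males (left) and at 8 against 2 months as the mean of the strata (right), by class, with chains that rose in red, those that fell in blue and those that did not pass in grey. Col3a1, Col9a1 and Col9a3 lie below 0 and Col8a1, Col12a1 and Col26a1 above 0 in both. Col2a1 is left out because WT libraries of 2 months in the genotype set are at 0.

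Leaving out the 5 libraries rich in thymocyte transcripts reduced the 19 calls to 6, of which Col3a1, Col5a3, Col6a1, Col6a3 and Col9a3 fell and Col11a1 rose, while calls over all genes dropped to 671 of 19362. Mural, endothelial and fibroblast markers fell at 8 months in 5 of 7, 4 of 7 and 4 of 8 cases, 4 of 8 thyrocyte markers rose and 1 fell, and all 5 liver and all 5 lung markers rose. Mural sums were 287 to 489 CPM at 8 months and 441.5 to 591 CPM at 2 months. Their part in the collagen differences was not tested.

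The 18-month and the 8-month comparisons share no library. Of 39 chains tested in both, 11 and 17 were called, 6 were called in both in the same direction and 0 in opposite directions. The 6 were 54.5% of the 18-month calls and 35.3% of the 8-month calls. Of all genes, 35.9% were called at 18 months and 32.6% at 8 months, and their overlap was not taken. Whether the 6 exceed the overlap of genes in general was therefore not tested. Col3a1, Col9a1 and Col9a3 were lower and Col8a1, Col12a1 and Col26a1 higher in the older group of each. Col4a3, which rose at 18 months, differed by -0.105 ± 0.11 at 8 months (adjusted p = 0.49), and Col5a3, which fell at 8 months, differed by 0.46 ± 0.23 at 18 months (adjusted p = 0.148).

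**Figure D4:**
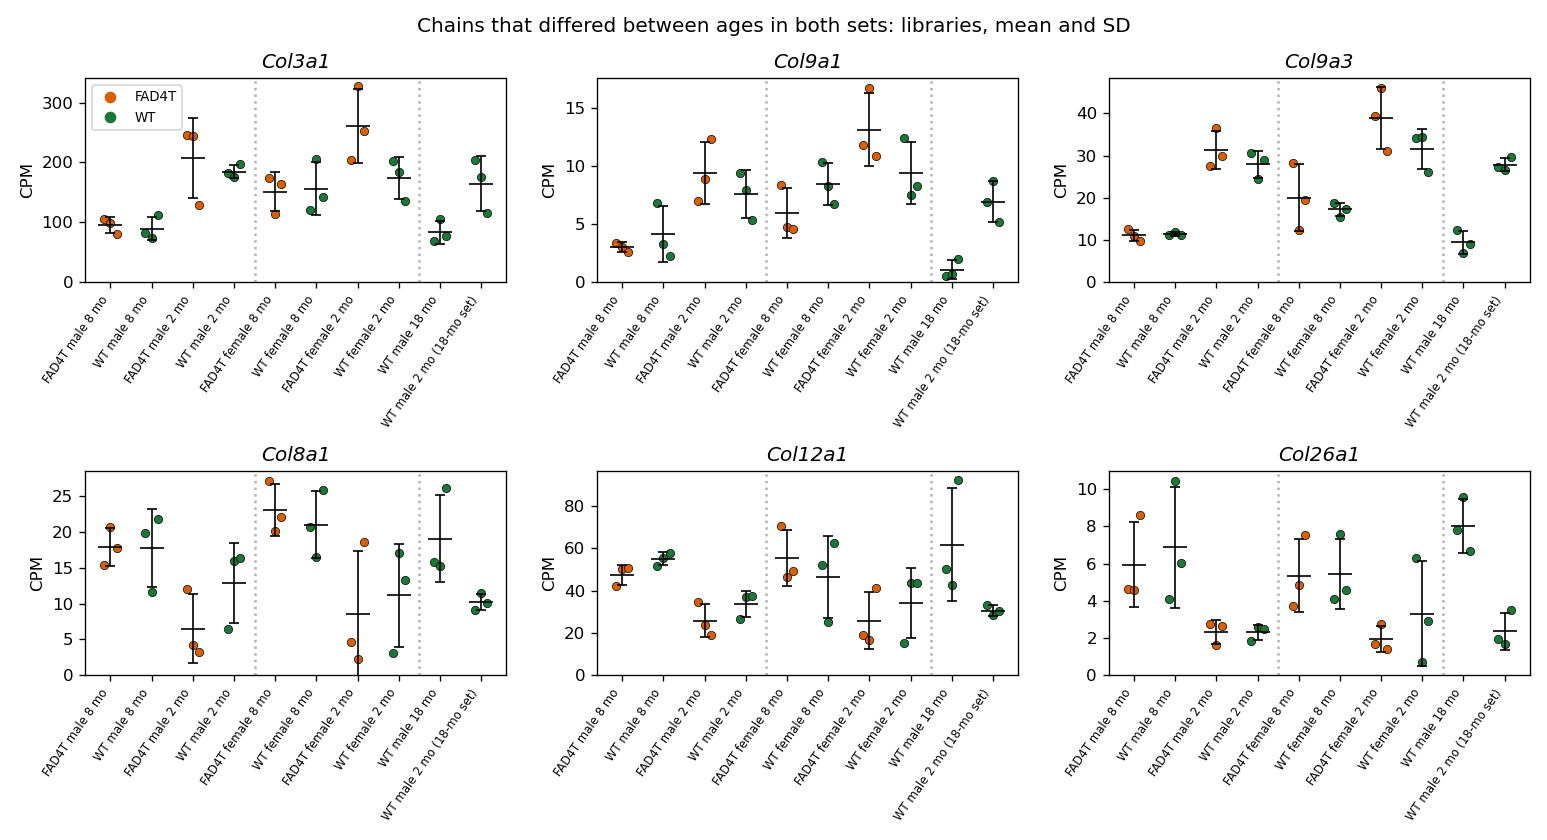
CPM of the 6 chains called in both age comparisons, 1 point a library, with the mean and SD of each of the 10 groups of 3 (orange FAD4T, green WT; bars end at 0). Each older group has a lower mean of Col3a1, Col9a1 and Col9a3 and a higher mean of Col8a1, Col12a1 and Col26a1 than the 2-month group of its sex, genotype and set.

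Within single strata the tests of 8 against 2 months made fewer calls. In FAD4T males 4 of 42 chains fell (Col3a1, Col6a1, Col9a1 and Col9a3), against 1.57% of all genes called. That count was 12 without 2-month FAD4T male 1, and 1 without 2-month FAD4T male 2 or without any 1 of the 8-month FAD4T males. Calls over all genes ran from 12 to 3918 when 1 library at a time was left out. FAD4T male 1 of 2 months had a thymocyte sum of 3.64 CPM, against 335 and 81.0 CPM in males 2 and 3. In FAD4T females 7 fell and Col1a1 rose, against 10.1% of genes. Here 15 were called without 2-month FAD4T female 3, 2 without 8-month FAD4T female 1 or 2, and 0 without 2-month FAD4T female 1 or 2 or 8-month FAD4T female 3. Genes called in general also ran widely in such fits, from 4 to 6703, so these swings were not particular to collagens. FAD4T female 3 of 2 months had a thymocyte sum of 2.63 CPM, against 131.5 and 206 CPM in females 1 and 2. Without that female or male 1, the 2-month FAD4T group of that sex held only thymocyte-rich libraries. The part of thymus tissue in these counts was not tested. Without the thymocyte-rich libraries 0 chains were called in either FAD4T stratum, and fitting only the groups compared gave 2 in FAD4T males and 0 in FAD4T females. In WT males Col9a3 alone fell, against 0.692% of genes, with 11.2, 11.8 and 11.2 CPM at 8 months and 30.55, 24.4 and 29.0 CPM at 2 months. In WT females edgeR called 0 chains, against 0.254% of genes. There 10 chains had an unadjusted p under 0.05 and 5 were called by DESeq2. For these counts no share of all genes was taken, so they cannot be set against genes in general. The smallest p among lower chains was that of Col5a3, at -0.71 ± 0.17 (adjusted p = 0.0817), and among higher chains that of Col11a1, at 1.395 ± 0.39 (adjusted p = 0.148). Without WT female 1 of 2 months 1 chain passed, and without WT female 1 of 8 months 2 did. Over single omissions in WT females 10 to 211 genes were called.

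With both genotypes averaged, a comparison added after the data were seen, 9 chains fell and 2 rose in males, against 9.77% of genes called, and 6 fell and 4 rose in females, against 10.3%. Col2a1, whose call carries no fold change, was among the rises in both sexes. In males the count was 16 without 2-month FAD4T male 1, 6 without 2-month FAD4T male 2 or WT male 1 and 7 without 8-month WT male 1. In females it was 15 without 2-month FAD4T female 3, 6 without 2-month FAD4T female 1 and 5 without 2-month FAD4T female 2 or 8-month FAD4T female 1. Calls over all genes ran from 887 to 3475 in males and from 596 to 5812 in females when 1 library was left out. FAD4T male 1 and FAD4T female 3 were the thymocyte-poor libraries of their 2-month groups. Col1a1 was called in opposite directions. Col1a1 fell by 0.885 ± 0.26 in males (adjusted p = 0.0378) and rose by 1.24 ± 0.26 in females (adjusted p = 0.00938), where 5 of the 6 libraries of 8 months were rich in lung transcripts. The male call was lost in 12 of 18 other settings, among them the replicate block, no filter on low counts and the fit without the thymocyte-rich libraries. The female call was lost in 1 of 18, without the thymocyte-rich libraries (adjusted p = 0.221). Col1a2 fell by 0.89 ± 0.17 in males (adjusted p = 0.00422) and differed by 0.36 ± 0.17 in females (adjusted p = 0.146), and Col5a2 rose by 0.50 ± 0.16 in females (adjusted p = 0.0479), a call lost in 14 of 18 other settings. The test of the difference itself, males minus females, gave -2.125 ± 0.37 for Col1a1 and -1.25 ± 0.24 for Col1a2, and neither passed (adjusted p = 0.064 and 0.0904). In that test edgeR called 0 chains, against 0.0162% of genes, with 11 at an unadjusted p under 0.05 and 3 called by DESeq2, and it called 3 without 8-month WT female 1, 2 without 2-month FAD4T male 3 and 1 without 8-month FAD4T male 1. In WT mice alone edgeR called 0, against 0.00541% of genes, and 2 without 8-month WT female 1. There 6 chains had an unadjusted p under 0.05 and 2 were called by DESeq2. No share of all genes was taken for the unadjusted and DESeq2 counts of either test of males minus females. With 1 library left out, edgeR called 1 to 18 genes for both genotypes and 0 to 4 genes for WT mice.

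At 8 months 4 of the 11 fibrillar chains were lower in male than in female WT thyroids. Col1a1, Col1a2, Col5a1 and Col5a2 fell in males and 0 chains rose, against 0.27% of all genes called. Col1a1 had 31.0, 24.4 and 33.6 CPM in males and 46.4, 205 and 189.7 CPM in females. All the males were lower, but female 1 was far below the other females, and the log2 difference was -2.33 ± 0.38 (adjusted p = 0.00599). Col1a2 had 57.3, 41.5 and 60.6 CPM in males and 83.5, 190 and 143.8 CPM in females, a difference of -1.41 ± 0.24 (adjusted p = 0.00831). Col5a2, partner of Col5a1 in type V, had 16.6, 11.8 and 20.1 CPM in males and 21.4, 49.9 and 47.0 CPM in females, a difference of -1.30 ± 0.23 (adjusted p = 0.0087). Col5a1 had 16.7, 18.1 and 18.9 CPM in males and 25.7, 35.6 and 27.8 CPM in females, a difference of -0.75 ± 0.14 (adjusted p = 0.0165). Without WT male 2 edgeR called 0 chains here, without female 2 it called 1, and without male 1 or female 3 it called 2. Over single omissions 23 to 84 genes were called.

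FAD4T mice of 8 months showed the same order, with Col1a1 at 53.3, 32.2 and 28.1 CPM in males and 208, 144.7 and 168 CPM in females. Averaged over both genotypes at 8 months, a comparison added after the data were seen, 9 chains fell in males and 0 rose, or 21.4% of the 42, against 1.41% of genes. They were Col1a1 (-2.27 ± 0.27, adjusted p = 5.3e-05), Col5a2 (-1.34 ± 0.16), Col1a2 (-1.375 ± 0.17), Col5a1 (-0.73 ± 0.10), Col6a3 (-0.81 ± 0.14), Col9a3, Col6a1, Col3a1 and Col9a1. Col6a3 had a lowest, median and highest level of 24.7, 31.1 and 39.7 CPM in males and 48.7, 53.1 and 64.4 CPM in females, with no overlap. Without FAD4T male 3 of 8 months 5 chains were called, and over single omissions 159 to 299 genes were. Fibroblast markers other than collagens summed to 867 to 1226 CPM in males of 8 months and 1219 to 1596 CPM in females, and adipocyte markers to 378 to 793 CPM in males and 762 to 1510 CPM in females. The part of these cells in the sex differences was not tested. Basement membrane chains were not among the calls, and their median log2 difference was -0.003. At 2 months only Col5a3 fell in the mean of both genotypes, by 0.58 ± 0.12 (adjusted p = 0.0487), against 0.216% of genes, and that call was lost without most single libraries. Over all 4 strata, 10 chains fell in males and 0 rose, or 23.8%, against 1.88% of genes called and 1.14% lower, and these added Col14a1 and Col5a3 to the 8-month list without Col3a1. Without the 5 libraries rich in thymocyte transcripts 5 chains were called in that mean.

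**Figure D5:**
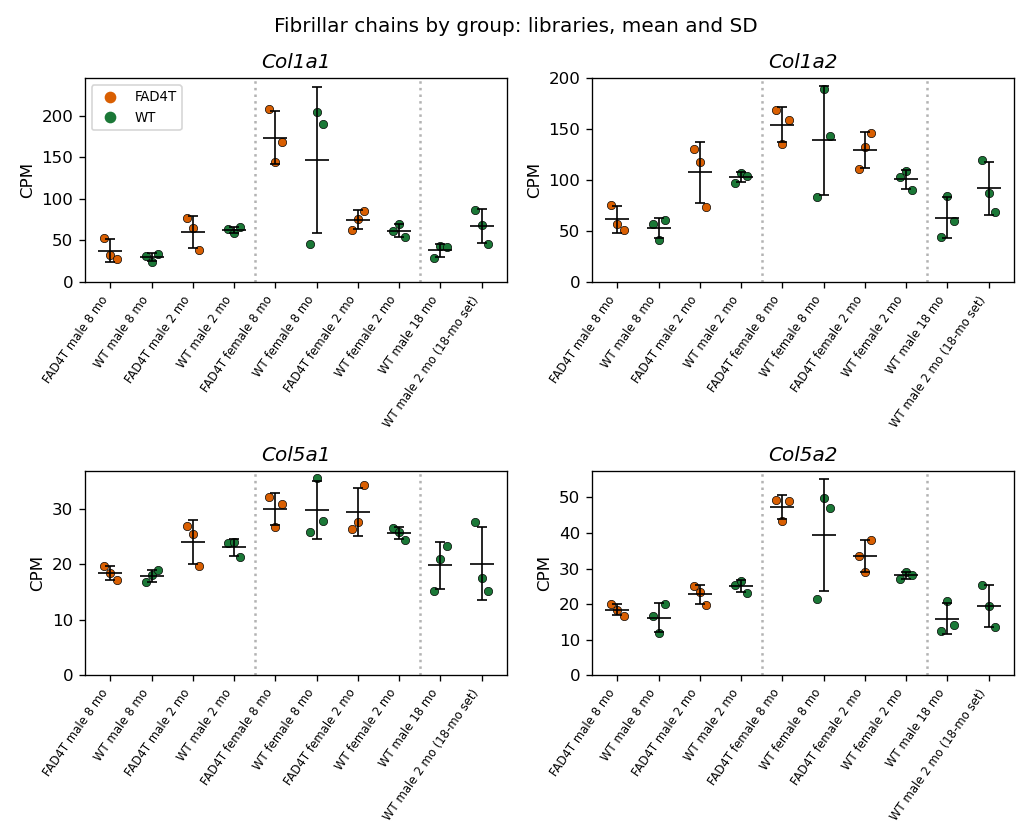
CPM of Col1a1, Col1a2, Col5a1 and Col5a2 in the 10 groups, 1 point a library, with the mean and SD of each group (orange FAD4T, green WT). The 8-month females stand above the 8-month males for all 4 chains except for Col1a1 in WT female 1, which at 46.4 CPM lies far below the 5 other females and under FAD4T male 1.

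In the 5 libraries of 8-month females rich in lung transcripts Col1a1 stood at 144.7 to 208 CPM. Sftpc, the gene of a surfactant protein made in lung alveoli, stood at 65.7 to 105 CPM in them and at 0.281 to 11.7 CPM in the other 25. The matrix genes Fn1, of fibronectin, and Thbs2 stood at 214 to 273 and 33.0 to 39.4 CPM in the 5, and at 23.1 to 92.0 and 2.70 to 9.62 CPM in the others. Bone markers summed to at most 1.33 CPM in any library. The part of lung tissue in the sex difference was not tested. WT female 1, with a lung sum of 14.2 CPM, had 46.4 CPM of Col1a1, within the 24.4 to 53.3 CPM of the 6 males of 8 months. It had 83.5 CPM of Col1a2, against 41.5 to 76.0 CPM in those males, 25.7 CPM of Col5a1, against 16.7 to 19.6 CPM, and 21.4 CPM of Col5a2, against 11.8 to 20.1 CPM. Without the 5 libraries, which leaves that 1 female assumed to vary like the other groups, 0 chains passed between WT males and females of 8 months.

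In WT mice of 2 months edgeR called 0 chains between males and females, against 0.0757% of genes. There 3 chains had an unadjusted p under 0.05 and DESeq2 called Col5a3, counts for which no share of all genes was taken. Col5a3 averaged 21.8 ± 3.06 CPM in males and 35.2 ± 4.15 CPM in females (SD, n = 3 each), a difference of -0.70 ± 0.17 (adjusted p = 0.107). Of the 78 genes that handle collagen, 11 fell in males and 0 rose in the mean over the strata, against 1.88% of all genes called and 1.14% lower. Those with the smallest p were Fn1 (-1.19 ± 0.15), Thbs2 (-1.43 ± 0.21), Ogn (-0.66 ± 0.12), Adamts2 (-0.585 ± 0.12), Mrc2 (-0.41 ± 0.09), Lama4 (-0.415 ± 0.09), Loxl1 (-0.46 ± 0.11) and Plod2 (-0.34 ± 0.08). The highest values of Fn1 and Thbs2 were those of the lung-rich libraries of 8-month females, as given above. At 8 against 2 months 14 of the 78 rose and 15 fell, close to the 15.8% of all genes that were higher and the 16.8% that were lower. Mmp13, a collagenase, averaged 2.18 ± 1.56 CPM at 8 months and 0.319 ± 0.197 CPM at 2 months (SD, n = 12 each), and rose by 2.71 ± 0.365 (adjusted p = 7.13e-05). Fn1 and Loxl4 rose by 0.97 ± 0.15 and 1.12 ± 0.19. For Fn1, the 5 lung-rich females of 8 months had 214 to 273 CPM and WT female 1 had 92.0 CPM. Females of 2 months had 37.7 to 81.9 CPM. In males of the genotype set Fn1 overlapped, at 39.3 to 64.7 CPM at 8 months and 32.5 to 63.0 CPM at 2 months. The part of lung tissue in the Fn1 rise was not tested. Serpinh1, the collagen chaperone of the endoplasmic reticulum, fell by 0.54 ± 0.09, and Tnxb, Agrn, Bmp1 and Pcolce fell by 0.74, 0.71, 0.48 and 0.37, with SE of 0.10, 0.11, 0.09 and 0.08.

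No collagen chain passed edgeR's adjusted threshold between FAD4T and WT thyroids. In males of 2 months 0 of 42 chains were called, against 0% of genes, with 4 at an unadjusted p under 0.05, against 14.5% of genes, and 0 called by DESeq2, against 0.509%. In females of 2 months 0 were called, against 0% of genes, with 8 at an unadjusted p under 0.05, against 16.7%, and 0 called by DESeq2, against 1.49%. In males of 8 months 0 were called, against 0% of genes, with 0 at an unadjusted p under 0.05, against 1.81%, and 0 called by DESeq2, against 0%. In females of 8 months 0 were called, against 0.0216% of genes, with 2 at an unadjusted p under 0.05, against 4.66%, and Col14a1 called by DESeq2, against 0.336%. In the mean of the strata 0 were called, against 0% of genes, with 5 at an unadjusted p under 0.05, against 15.4%, and 0 called by DESeq2, against 1.74%. As shares of the 42 chains, the counts at an unadjusted p were close to those of genes in general or below them. In simulated data only 21 of 100 changes of 1 on the log2 scale were called between FAD4T and WT males of 2 months. A missing call in 1 stratum is therefore not evidence that a chain did not differ by that much.

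The chains with the smallest p in each direction show the size of what was seen. Col13a1 had 27.6, 22.3 and 26.3 CPM in FAD4T males of 2 months and 40.2, 35.7 and 38.0 CPM in WT males, with no overlap, a difference of -0.57 ± 0.19 (adjusted p = 0.343), and Col20a1 differed by 0.68 ± 0.27. Col25a1, a membrane collagen whose shed part was found in amyloid plaques of the human brain, had 9.84, 9.23 and 5.50 CPM in FAD4T females of 2 months and 4.56, 3.20 and 3.06 CPM in WT females. These groups did not overlap, with a difference of 1.18 ± 0.34 (adjusted p = 0.171), and Col26a1 differed by -0.77 ± 0.53. In the other groups of the genotype set Col25a1 lay between 2.69 and 6.96 CPM. Col14a1, which binds type I fibrils, had 21.7, 21.5 and 36.7 CPM in FAD4T females of 8 months and 15.6, 13.3 and 15.3 CPM in WT females, a difference of 0.85 ± 0.21 (adjusted p = 0.579), and Col24a1 differed by -1.295 ± 0.57. In males of 8 months Col22a1 and Col2a1 had the smallest p, both with an adjusted p of 1. Over the strata these were Col7a1, at 0.35 ± 0.13 (adjusted p = 0.246), and Col9a2, at -0.33 ± 0.22.

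The main chains differed by -0.05 to 0.20 between FAD4T and WT in the mean of the strata. Col1a1 differed by 0.20 ± 0.18, Col1a2 by 0.20 ± 0.12 and Col3a1 by 0.20 ± 0.13. Col4a1 and Col4a2 differed by 0.02 ± 0.14 and 0.03 ± 0.12, and Col6a1, Col6a2 and Col6a3 by 0.18 ± 0.085, -0.05 ± 0.15 and 0.08 ± 0.10. Leaving out library 3 of the 2-month FAD4T females gave 6 chains called in that group and 2 in the mean, and calls over all genes in that group then reached 3001. Library 3 had a thymocyte sum of 2.63 CPM, and the FAD4T females that remained had 131.5 and 206 CPM. The WT females of 2 months had 1.08 to 19.8 CPM. The part of thymus tissue in these calls was not tested. Whether the FAD4T difference changed with age or sex was tested by 4 interaction terms. In these edgeR and DESeq2 each called 0 chains, and edgeR called 0% of genes. An unadjusted p under 0.05 was found for 3 chains for age in males and 3 for age in females. It was found for 2 for sex at 2 months and 1 for sex at 8 months. No share of all genes was taken for these unadjusted and DESeq2 counts, so they cannot be set against genes in general. Of the 78 genes that handle collagen, 0 were called by edgeR in any FAD4T comparison.

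Col2a1, the main fibrillar chain of cartilage, was near absent from young glands of the genotype set. It had 0.607, 0 and 0.385 CPM in FAD4T males and 0.219, 0.109 and 0 CPM in FAD4T females of 2 months, and 0 in all 6 WT libraries of that age. At 8 months it ran from 0.201 through a median of 1.65 to 34.5 CPM, with WT male 1 at 34.5 CPM and WT female 1 at 23.65 CPM far above the others. The call at 8 against 2 months carries no fold change here, because the fit compares with groups at 0 and the gene passed the filter through its high libraries. The cartilage genes Acan and Matn1 had 2.74 and 1.07 CPM in that male and 1.74 and 0.225 CPM in that female, and no more than 0.882 and 0.165 CPM in any 2-month library of the genotype set. The other 5 females of 8 months, with Col2a1 at 0.201 to 1.98 CPM, had 1.38 to 2.23 CPM of Acan. In the ageing set Col2a1 had 1.08, 0 and 0.743 CPM at 18 months and 0.565, 0 and 0.211 CPM at 2 months.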

How the data were processed

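The authors' deposited values are whole-number counts per gene in 30 thyroid libraries. They were made with featureCounts 1.6.0 over exons of Ensembl release 88 (GRCm38), for read pairs and without a strand option, per the file headers. The submitters' processing notes also name cutadapt 1.9, HISAT2 2.0.4 and StringTie 1.3.4d and another build, GRCm39. Because the kit marks strand and the counting did not use it, overlapping genes share reads.

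Counts were tested with edgeR 4.0.16 in R 4.3.3 (TMM, filterByExpr with a minimum count of 10, robust quasi-likelihood, prior count 0.125, Benjamini-Hochberg adjustment over all genes at 0.05). The 24 genotype libraries were fitted in 1 model (18493 genes) and the 6 ageing libraries apart (16283 genes). DESeq2 1.42.0 was an alternative. The standard error is the fold change over the root of the F statistic. The scripts were tested on simulated data with a coefficient of variation of 0.3 between mice. Of 100 changes of 1 on the log2 scale, 21 were called for FAD4T against WT males of 2 months. For 18 against 2 months 18 were called, and for 8 against 2 months in the mean of the strata 96. Of 100 changes of 2, the calls were 99, 94 and 100. Members and gene lists were chosen with earlier results of these data known. Named chains are those past the threshold, the 12 with the smallest p where there were more, otherwise the smallest p in each direction, besides 9 main chains and the highest 3 of each class. Of the handling genes, up to 8 per comparison are named.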

Additional observations from a re-analysis of the deposited data

How the results depend on the processing

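No called chain changed direction under any alternative, but only the sign of chains already called was compared. Many calls were lost, 243 of 1236 when 1 library was left out and 20 of 47 when only the groups compared were fitted. DESeq2 gave 1 call for FAD4T against WT females of 8 months, 4, 5, 9 and 13 for 8 against 2 months in WT males, WT females, FAD4T males and FAD4T females, 17 in both male strata, 1 for sex in WT mice of 2 months, and 2 and 3 for the interaction of age and sex in WT mice and in both genotypes. Fitting only the groups compared gave 6, 2 and 0 for 8 against 2 months in WT males, FAD4T males and FAD4T females, 4 in both female strata, and 0 for sex in WT mice of 8 months and in the 2-month strata. Leaving out the 5 libraries rich in thymocyte transcripts gave, for 8 against 2 months, 6 in the mean of the strata, 0 in FAD4T males, 0 in FAD4T females, 5 in both male strata and 0 in both female strata, and for sex 5 in the mean of the strata and 0 in the 2-month strata. Without a filter the counts were 7 in both male strata and 0 for sex at 2 months, and DESeq2 size factors also gave 0 there. All 6 WT males of 2 months as the comparison group gave 7 for 18 months. Leaving out the 5 lung-rich libraries, chosen after seeing the data, gave 0 for sex in WT mice of 8 months. The cause was not tested, beyond fewer libraries where some were left out. Apart from those in the Results, no share of all genes stands beside these counts, so they cannot be set against genes in general.

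Leaving out 1 library at a time gave 4 to 9 calls for 18 against 2 months, with 3651 to 5470 calls over all genes. For 8 against 2 months it gave 1 in each case in WT males, 0 to 2 in WT females, 1 to 12 in FAD4T males and 0 to 15 in FAD4T females. It gave 18 to 20 in the mean of the strata, 6 to 16 in both male and 5 to 15 in both female strata. Over all genes these ranges were 30 to 55 in WT males and 10 to 211 in WT females. In FAD4T males they were 12 to 3918 and in FAD4T females 4 to 6703. They were 4598 to 8126 in the mean of the strata, 887 to 3475 in both male and 596 to 5812 in both female strata. For sex it gave 0 in each case in WT mice of 2 months, 0 to 4 in those of 8 months, 7 to 10 in the mean, 0 to 1 in the 2-month and 5 to 9 in the 8-month strata, with 0 to 2 and 0 to 3 for the interactions with age in WT mice and in both genotypes. For FAD4T against WT it gave 0 to 6 in females of 2 months, 0 to 2 in the mean, and 0 in each case in the other strata and the 4 interactions. The 6 and the 2 chains arose without FAD4T female 3, the thymocyte-poor library of its 2-month group. Over all genes the ranges were 0 to 3001 in females of 2 months and 0 to 1300 in the mean.

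With the replicate number as a block, calls for 8 against 2 months were 1 in WT males, 0 in WT females, 3 in FAD4T males, 7 in FAD4T females, 19 in the mean, 11 in both male and 9 in both female strata. For sex the block gave 4 in WT mice of 8 months, 0 in those of 2 months, 10 in the mean, 1 in the 2-month and 8 in the 8-month strata. It gave 0 for the FAD4T comparisons and all interactions. No share of all genes stands beside the counts with the block. Deviations of same-numbered libraries correlated at -0.522 to 0.564 (median 0.048), over 0.1 in 35 of 84 pairs. Those of libraries with different numbers correlated at -0.627 to 0.776 (median -0.031), over 0.1 in 58 of 168 pairs. The labels state no block, so the pairing is not in the design, and these correlations cannot settle whether same-numbered libraries share more than a number. No paired analysis was possible for 18 against 2 months because those groups share no numbers.

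Depth limits the scarce chains: 3 counts correspond to 0.152 to 0.235 CPM, above the median of Col19a1, Col6a4 and Col6a5.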

Other observations

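Parathyroid tissue was present in some libraries and nearly absent from others, in a way the groups do not give. Pth, the gene of parathyroid hormone, stood at 5.20 to 158 CPM in 9 libraries and at 4861 to 35980 CPM in the other 21. Col23a1, a membrane-bound collagen, lay at 2.71 to 4.65 CPM in those 9 and at 7.60 to 29.5 CPM in the 21. This was seen in the data and no test was run on it.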
